A study of Mus musculus with 8 samples.

Results

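CC chemokines are small secreted proteins that draw leukocytes along a gradient by binding G protein-coupled CC receptors. The 10 genes described here encode CC chemokines known for recruiting myeloid cells (Ccl2, Ccl3, Ccl4, Ccl6, Ccl7, Ccl8, Ccl9, Ccl11, Ccl17 and Ccl20), and they were chosen by name from 52636 genes counted in lung RNA-seq. In the lung they are made by macrophages, airway epithelium, fibroblasts, endothelium and dendritic cells, and they are known for bringing monocytes, neutrophils, eosinophils, dendritic cells and lymphocytes into inflamed tissue. CCL2 and CCL7 act on the monocyte receptor CCR2, CCL11 on the eosinophil receptor CCR3, CCL17 on CCR4, CCL20 on CCR6, and CCL6 and CCL9, which are rodent chemokines, on CCR1.

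The 8 libraries held total RNA from lung tissue of male wild-type C57BL/6 mice, 2 libraries in each of 4 groups. PBS was given to control mice. For the COPD mice model, elastase from porcine pancreas (PPE), which damages alveolar walls, was given at 10 weeks of age, and lipopolysaccharide (LPS), a bacterial wall component that provokes inflammation, was given from 12 weeks. From 8 weeks of age each of these was fed either a control diet (no TJ-41) or the same diet with 2% TJ-41, the kampo medicine hochuekkito. No group received PPE or LPS alone, and the sources used here do not say how many mice a library holds or on which day its RNA was taken. Total counts ran from 18767295 to 20888042 per library.

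Levels are given as CPM, the read count scaled to a common library total, with totals rescaled by the trimmed mean of M values (TMM). Surfactant and other lung-defining transcripts were abundant in all 8 libraries, with a summed level of 19214 to 40246 CPM. 1 library stood apart: in COPD mice on the control diet the replicates differed with an SD of 0.798 in log2 CPM across genes, against 0.394 to 0.469 in the other 3 groups, and 7 of the 10 chemokines had their highest CPM in replicate 2 of that group. For several members, results that rest on it are therefore given with and without this library. Medians over the 10, other ligands, receptors, markers and correlations with genes outside the 10 were computed with this library. Where it was left out, its group had 1 library, which was assumed to vary like the other groups.

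Of the genes, 8 lie on mouse chromosome 11 (GRCm38), in one cluster of monocyte and eosinophil attractants and a second one of macrophage inflammatory proteins, separated by 1456119 bases. The first cluster holds Ccl2 (chr11:82035571-82037453), Ccl7 (chr11:82045712-82047525), Ccl11 (chr11:82057823-82062955) and Ccl8 (chr11:82115185-82116799), all on the plus strand. The second holds Ccl9 (chr11:83572919-83578636), Ccl6 (chr11:83587882-83593087) and Ccl3 (chr11:83647844-83649355) on the minus strand and Ccl4 (chr11:83662584-83664683) on the plus strand. Ccl20 lies apart at chr1:83116766-83119167 and Ccl17 at chr8:94810453-94812036, both on the plus strand. The exons of none of the 10 overlapped an exon of another gene. Of the 50-base sequences in their exons, 1.97% of those in Ccl9 also occurred in other genes and 0% of those in the other 9.

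RefSeq promoter windows (GRCm38.p6, 250 bases before to 50 after the start) were at hand for Ccl20, Ccl17, Ccl8, Ccl9, Ccl6 and Ccl3. The 250 bases before the start are shown, 5′ to 3′ on the strand of the gene, for Ccl20, Ccl6, Ccl8 and Ccl9. Ccl20 and Ccl6 were the members with the smallest adjusted p in the COPD mice model over both diets. The motif matches of Ccl8 and Ccl9 differ from theirs. Capitals mark matches, on either strand, to an NF-κB-like motif (GGNNTTTCC), an AP-1-like motif (TGANTCA) or a TATA box (TATAAA), the binding sites known from inflammatory genes and basal transcription. The windows are chr1:83116516-83116765 (plus), chr11:83593088-83593337 (minus), chr11:82114935-82115184 (plus) and chr11:83578637-83578886 (minus), in the order of the lines.
Ccl20: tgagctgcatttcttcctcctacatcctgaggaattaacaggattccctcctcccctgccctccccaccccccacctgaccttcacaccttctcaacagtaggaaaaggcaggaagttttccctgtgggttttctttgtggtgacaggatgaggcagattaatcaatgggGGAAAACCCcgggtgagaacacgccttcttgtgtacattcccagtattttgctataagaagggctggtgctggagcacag
Ccl6: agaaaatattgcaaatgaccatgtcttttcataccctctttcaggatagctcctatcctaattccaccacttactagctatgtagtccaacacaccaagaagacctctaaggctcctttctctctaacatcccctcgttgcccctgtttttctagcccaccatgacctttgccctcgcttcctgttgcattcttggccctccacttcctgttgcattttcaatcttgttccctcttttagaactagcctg
Ccl8: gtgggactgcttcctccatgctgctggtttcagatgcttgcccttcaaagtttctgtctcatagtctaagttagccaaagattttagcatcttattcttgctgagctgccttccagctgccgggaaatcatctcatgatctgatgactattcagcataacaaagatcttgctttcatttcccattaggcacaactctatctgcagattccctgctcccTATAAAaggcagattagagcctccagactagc
Ccl9: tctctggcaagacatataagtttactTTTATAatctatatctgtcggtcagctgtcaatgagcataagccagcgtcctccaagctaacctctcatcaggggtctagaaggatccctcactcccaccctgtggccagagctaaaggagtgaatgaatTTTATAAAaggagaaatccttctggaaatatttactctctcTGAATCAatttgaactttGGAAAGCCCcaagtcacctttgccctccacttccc

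The Ccl20 window held an NF-κB-like match on the opposite strand at -80 to -72, counted from the transcription start. The Ccl8 window held a TATA box at -32 to -27. The Ccl9 window held an NF-κB-like match at -35 to -27, an AP-1-like match at -53 to -47, which reads the same on both strands, and 3 TATA matches, 2 of which overlap. No match was found in the windows of Ccl6, Ccl17 and Ccl3. Of all 32851 promoter windows, 5.82% held the NF-κB-like motif, 7.81% the AP-1-like motif and 13.6% the TATA box. The windows of the neighbours Ccl6 and Ccl9 were identical at 51 of 100 bases in their best ungapped stretch, and the other 14 pairs at 41 to 47.

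Expressed per kilobase of exon, which allows levels to be set side by side between genes, Ccl6 was by far the most abundant of the 10, with a mean of 151 CPM per kb and a range of 73.2 to 251 over the 8 libraries. Ccl17 followed with 19.1 (10.7 to 52.8), then Ccl9 with 10.2 (7.23 to 17.4), Ccl8 with 10.2 (5.60 to 27.1) and Ccl11 with 5.74 CPM per kb (3.38 to 13.1). Ccl3, Ccl20, Ccl7, Ccl4 and Ccl2 had means of 2.80, 2.00, 1.60, 1.38 and 1.20 CPM per kb. Only Ccl6 was separated from its neighbour in this order without overlap of the libraries, and each later step lay within the spread. Ccl2, the best known monocyte attractant, was thus the lowest on this scale, with 7 to 55 reads per library.

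**Figure D1:**
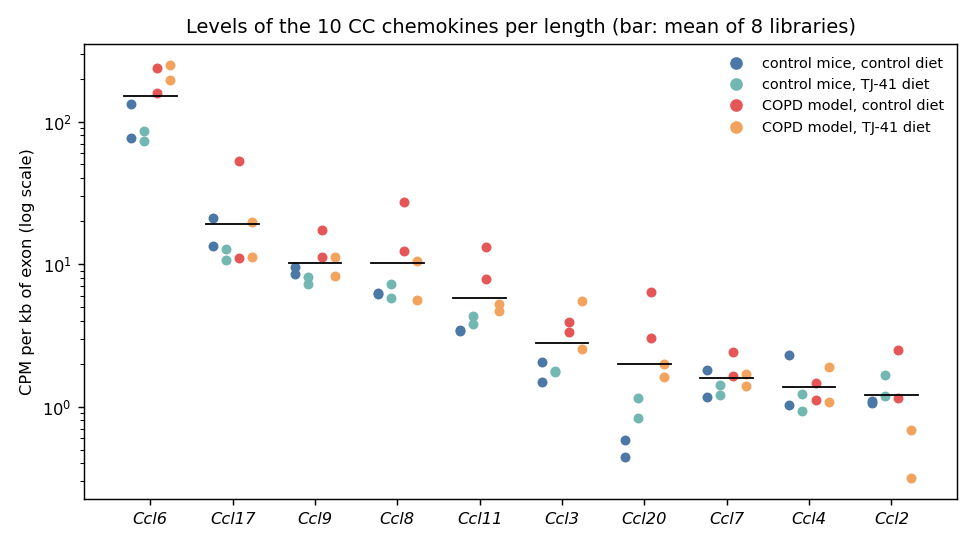
Level of each chemokine in CPM per kilobase of exon on a log axis. Each point is 1 library, coloured by group, and the bar is the mean of 8 libraries. Ccl6 lies between 73.2 and 251, above every library of the other 9 genes.

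The study compared the lung transcriptome of the COPD mice model with that of control mice. Over both diets, the 4 libraries of the COPD mice model were compared with the 4 of control mice. Ccl20 was called as a differentially expressed gene (DEG), with an adjusted p under 0.05 and more than 1 unit of change on the log2 scale, and was the only 1 of the 10 called (0.443% of all 20546 tested genes were). Of the 10, 6 had an unadjusted p under 0.05 (background 10.4%), and all 6 had higher levels in the COPD mice model: Ccl20, Ccl6, Ccl11, Ccl3, Ccl8 and Ccl9. In 4 of them, Ccl20, Ccl6, Ccl11 and Ccl3, every COPD library lay above every control library (background 6.78%). The median log2 fold change of the 10 was 0.80, against -0.00165 over all tested genes, with 9 positive and Ccl2 negative. In bulk lung tissue more cells of a type and more RNA per cell cannot be told apart.

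**Figure D2:**
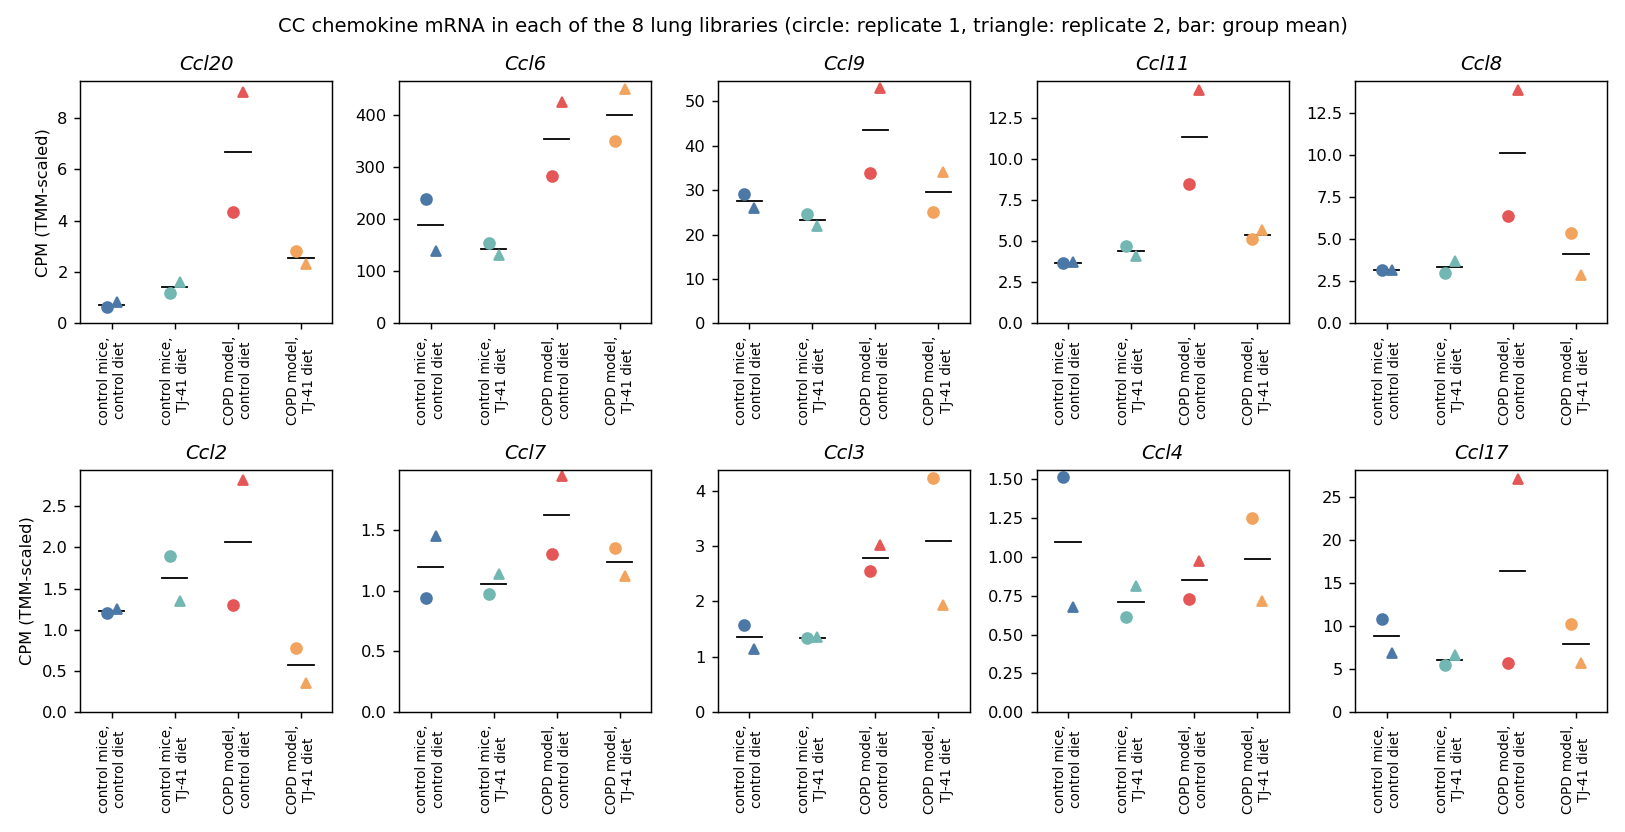
Level of each of the 10 chemokines in CPM, each vertical axis from 0, in the 4 groups. Circles are replicate 1, triangles replicate 2 and bars the group mean. Ccl20 lies between 0.628 and 1.62 in control mice and between 2.30 and 9.02 in the COPD mice model, and replicate 2 of COPD mice on the control diet is the highest library for 7 genes.

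Ccl20 attracts CCR6-bearing dendritic cells, T helper 17 cells and B cells, and airway epithelium is a known source. In control mice it measured 0.628 and 0.831 CPM on the control diet and 1.18 and 1.62 CPM on TJ-41. In the COPD mice model it measured 4.33 and 9.02 CPM on the control diet and 2.82 and 2.30 CPM on TJ-41. The 4 groups did not overlap, and the order was control mice on the control diet, control mice on TJ-41, COPD mice on TJ-41 and COPD mice on the control diet. These levels rest on 12 to 30 reads per library in control mice and 45 to 176 reads per library in COPD mice.

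On the control diet Ccl20 was 9.08-fold higher in the COPD mice model (6.68 ± 3.32 against 0.73 ± 0.14 CPM, SD, n = 2), a log2 fold change of 3.18 ± 0.45 (SE) with an adjusted p of 0.0465 (quasi-likelihood test of edgeR, Benjamini-Hochberg adjustment). It was the only 1 of the 10 called there, where 0.122% of all genes were called. That call was lost with a term for the replicate number (edgeR adjusted p of 0.0663) and with only the 2 groups compared (0.134). Over both diets the log2 fold change was 2.03 ± 0.31 (SE), or 4.07-fold, with an adjusted p of 0.0272 by the main edgeR test. An edgeR fit that added the effects of model and diet did not call it (0.0969). On TJ-41 the log2 fold change was 0.87 ± 0.42 (SE) with an adjusted p of 0.773 by edgeR, which did not pass. Without replicate 2 of COPD mice on the control diet, the log2 fold change was 2.56 on the control diet and 1.72 over both diets, with edgeR adjusted p of 0.0124 and 0.0052.

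The direction of Ccl20 held in each of the 8 fits that left out 1 library, but the call over both diets did not. It was lost without replicate 1 or 2 of control mice on the control diet (edgeR adjusted p of 0.185 and 0.14), without replicate 1 or 2 of control mice on TJ-41 (0.205 and 0.16), and without replicate 1 of COPD mice on TJ-41 (0.111). On the control diet it was lost without those 5 libraries (0.476, 0.314, 0.129, 0.118 and 0.059) and without replicate 2 of COPD mice on TJ-41 (0.0584). Airway epithelial markers, which include secretoglobins and ciliated cell genes, summed to 14236 and 32841 CPM in the 2 COPD libraries on the control diet, the lower and the higher Ccl20 library of that group, to 15177 and 18442.5 CPM in those on TJ-41, and to 20087 to 23688 CPM in control mice. Scgb1a1 alone made up 11580 and 28870 CPM of the COPD sums on the control diet and 12824 and 15683 CPM on TJ-41. In control mice it made up 17333 to 21152 CPM. Both TJ-41 sums lay below every control library. In both of these COPD libraries Scgb3a1, Foxj1 and Reg3g lay above every control library, and Scgb1a1, Scgb3a2 and Tppp3 below. The other tested airway epithelial markers overlapped control libraries. Of their 9 tested genes, 3 had higher and 1 lower levels in the COPD mice model at an unadjusted p under 0.05, and 1 was called, the antimicrobial lectin Reg3g (log2 fold change 2.06 ± 0.32, SE, adjusted p of 0.0342 by edgeR). Over the 8 libraries the log2 CPM of Reg3g and Ccl20 had a Pearson r of 0.90. The markers' part in the Ccl20 result was not tested.

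Ccl6 and Ccl9 are constitutively expressed by mouse macrophages and other myeloid cells. Ccl6 measured 238 and 138 CPM in control mice on the control diet, 154 and 131 on TJ-41, 283 and 426 in COPD mice on the control diet, and 351 and 450.1 on TJ-41. All 4 COPD libraries were above all 4 control libraries, with means of 377 ± 75.9 and 165 ± 49.5 CPM (SD, n = 4). The log2 fold change was 1.20 ± 0.21 (SE), or 2.30-fold, with an adjusted p of 0.0508 (quasi-likelihood test of edgeR, Benjamini-Hochberg adjustment), just outside the threshold. It was 0.91 ± 0.29 on the control diet and 1.49 ± 0.30 on TJ-41 (SE), with edgeR adjusted p of 0.47 and 0.219. Between the diets the COPD libraries overlapped, with a log2 difference of 0.18 ± 0.29 (SE).

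The call for Ccl6 turned on the setting. Without replicate 1 or 2 of COPD mice on the control diet it passed over both diets, with log2 fold changes of 1.33 and 1.05 and edgeR adjusted p of 0.00193 and 0.0152, and DESeq2 also called it (adjusted p of 1.99e-06). The summed level of 12 alveolar macrophage markers was 964 to 1169 CPM in control mice and 1375 to 2004 CPM in the COPD mice model. Chil3 alone made up 371 to 476 and 625 to 1387 CPM of these sums, and the other 11 overlapped, with 581 to 732 CPM in control mice and 609 to 852 CPM in the COPD mice model (a split made after the values were seen). Of the 12 genes none was called, and 4 had higher and 1 lower levels at an unadjusted p under 0.05 (background 10.4%). The higher ones were the fatty acid carrier Fabp4, the chitinase-like Chil3, the proton pump subunit Atp6v0d2 and the surface protein Plet1. The lower one was the lectin Siglecf. Over the 8 libraries the log2 CPM of Ccl6 and Chil3 had a Pearson r of 0.93. The part of these cells in the Ccl6 result was not tested.

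Ccl9 measured 29.2 and 25.9 CPM in control mice on the control diet and 24.6 and 22.0 on TJ-41, against 33.9 and 53.0 in COPD mice on the control diet and 25.0 and 34.0 on TJ-41. The COPD libraries overlapped the control libraries, since 1 COPD library on TJ-41 lay below 2 control libraries. Its log2 fold change over both diets was 0.50 ± 0.17 (SE), with an adjusted p of 0.348 by edgeR's quasi-likelihood test, and 0.33 without replicate 2 of COPD mice on the control diet.

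Ccl3 and Ccl4, the macrophage inflammatory proteins 1α and 1β, lie 13228 bases apart and did not share a pattern. Ccl3 measured 1.57 and 1.14 CPM in control mice on the control diet, 1.33 and 1.35 on TJ-41, 2.56 and 3.03 in COPD mice on the control diet, and 4.23 and 1.94 on TJ-41. Each of the 4 COPD libraries was above each control library. The log2 fold change over both diets was 1.12 ± 0.30 (SE), with an unadjusted p of 0.00443 and an adjusted p of 0.194 by edgeR. It was 1.04 ± 0.42 on the control diet and 1.20 ± 0.42 on TJ-41 (SE), so that the estimates on the 2 diets, which share no library, lay within 1 SE of each other. Ccl4 measured between 0.615 and 1.52 CPM in control mice and between 0.716 and 1.25 CPM in the COPD mice model, with overlapping libraries. Its log2 fold change was 0.05 ± 0.37 (SE) over both diets. It was counted with only 12 to 29 reads per library, so small differences were not detectable at this depth.

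Ccl2, Ccl7 and Ccl8 are the monocyte chemoattractant proteins, and Ccl11, or eotaxin, attracts eosinophils. Ccl8 measured 3.19 and 3.17 CPM in control mice on the control diet, 2.97 and 3.73 on TJ-41, 6.36 and 13.8 in COPD mice on the control diet, and 5.37 and 2.86 on TJ-41. Both COPD libraries on the control diet were above all other libraries, while those on TJ-41 overlapped control mice. Its log2 fold change on the control diet was 1.67 ± 0.43 (SE), or 3.17-fold, with an adjusted p of 0.333 by edgeR's quasi-likelihood test, and 1.00 without replicate 2 of that COPD group. On TJ-41 it was 0.30 ± 0.43 (SE).

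Ccl11 had the same order of groups as Ccl20, with less spread. It measured 3.66 and 3.74 CPM in control mice on the control diet, 4.71 and 4.11 on TJ-41, 8.45 and 14.2 in COPD mice on the control diet, and 5.11 and 5.67 on TJ-41. None of the 4 groups overlapped another. The log2 fold change was 1.61 ± 0.30 on the control diet and 0.29 ± 0.30 on TJ-41 (SE), with edgeR adjusted p of 0.137 and 0.807. Without replicate 2 of COPD mice on the control diet, the former was 1.19. Both Ccl8 and Ccl11 were called on the control diet by DESeq2, with adjusted p of 0.0252 and 0.00111.

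Ccl2 had its lowest levels in COPD mice on TJ-41. It measured 1.20 and 1.25 CPM in control mice on the control diet, 1.90 and 1.35 on TJ-41, 1.30 and 2.82 in COPD mice on the control diet, and 0.783 and 0.358 on TJ-41. The COPD libraries on TJ-41 were the lowest of the 8, with 15 and 7 reads, and those on the control diet lay above both of their controls. The log2 fold change was 0.75 ± 0.49 on the control diet and -1.50 ± 0.53 on TJ-41 (SE), with edgeR adjusted p of 0.815 and 0.66. On the control diet it was 0.09 without replicate 2 of the COPD group, whose replicate 1 had 25 reads against 23 and 24 in its controls. Ccl7, its neighbour at a distance of 8258 bases, ranged from 0.942 to 1.95 CPM, with overlap of COPD and control libraries on each diet, and its log2 fold change over both diets was 0.34 ± 0.29 (SE).

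Ccl17, a dendritic cell chemokine that attracts CCR4-bearing T cells, was decided by 1 library. It measured 10.9 and 6.85 CPM in control mice on the control diet, 5.48 and 6.60 on TJ-41, 5.68 and 27.1 in COPD mice on the control diet, and 10.2 and 5.73 on TJ-41. Only replicate 2 of COPD mice on the control diet was outside the range of control mice. The log2 fold change on the control diet was 0.89 ± 0.60 (SE) with this library and -0.64 without it. Over the 8 libraries Ccl22, which encodes the other CCR4 ligand, followed Ccl17 with a Pearson r of 0.98 in log2 CPM, and the same high library was among them.

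Within single diets, 6 of the 10 had an unadjusted p under 0.05 on the control diet, all with higher levels in the COPD mice model (background 7.7%), and 7 had COPD libraries above control libraries (background 27.6%). Without replicate 2 of the COPD mice model, 3 of the 6 were left: Ccl8, Ccl11 and Ccl20. On TJ-41 none was called (background 0.0779%), while DESeq2 called 1, Ccl6, and 3 had an unadjusted p under 0.05 by edgeR (background 6.56%): Ccl6 and Ccl3 with higher levels and Ccl2 with a lower level. There, 5 had higher and 1 lower levels without overlap, or 6 of 10, close to the background of 56.5%. The median log2 fold change of the 10 was 0.90 on the control diet and 0.37 on TJ-41. On the control diet without replicate 2 of the COPD group, Ccl2, Ccl3, Ccl4, Ccl6 and Ccl7 were at 0.09, 0.91, -0.58, 0.59 and 0.12. In the same fit, Ccl8, Ccl9, Ccl11, Ccl17 and Ccl20 were at 1.00, 0.30, 1.19, -0.64 and 2.56. The median of 0.90, and with it the difference from TJ-41, therefore rested in part on this library.

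**Figure D3:**
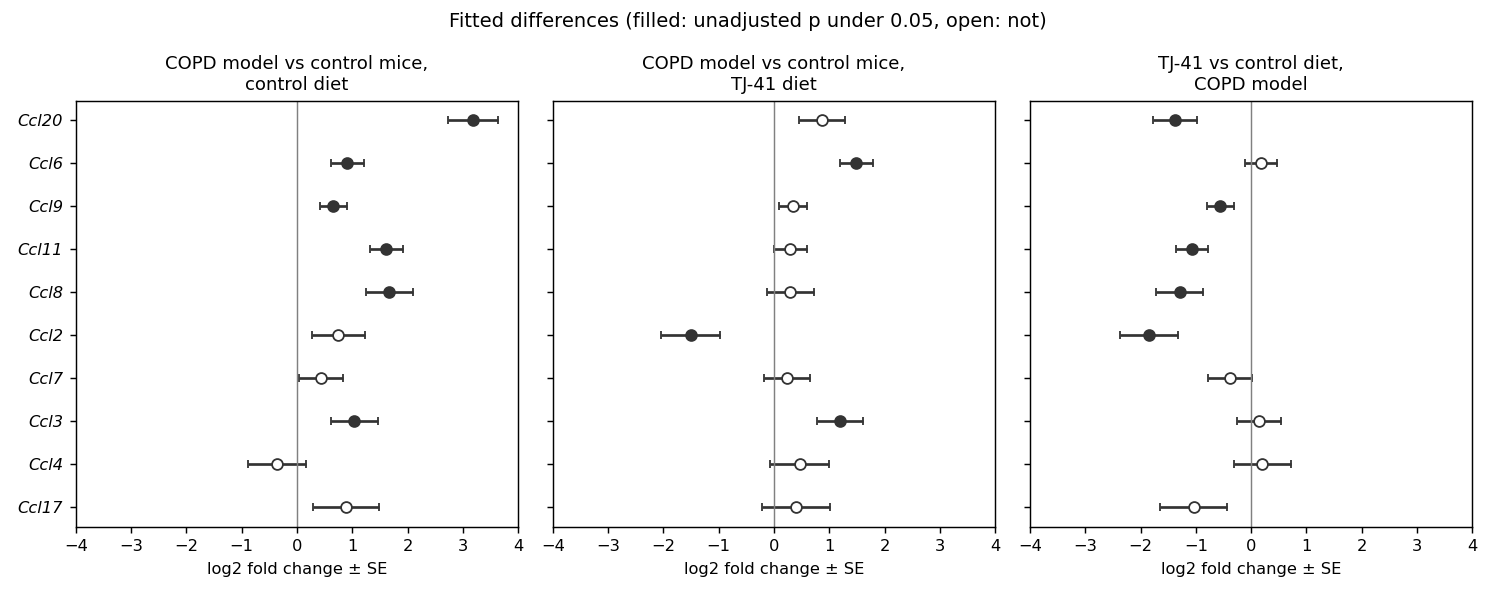
Fitted log2 fold change with its SE for each chemokine in 3 comparisons. Filled points have an unadjusted p under 0.05 in edgeR's quasi-likelihood test. On the left Ccl20 reaches 3.18, in the middle Ccl6 has the highest value (1.49) and Ccl2 the lowest (-1.50), and on the right, where the COPD libraries on the control diet serve as the reference, 5 genes have filled points below 0.

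The study also compared lung RNA with and without TJ-41 in control mice. In control mice none of the 10 was called (background 0%) and none had an unadjusted p under 0.05 (background 1.64%), and DESeq2 likewise gave 0 for both. The log2 fold changes ran from -0.62 for Ccl4 to 0.93 for Ccl20, with SEs of 0.25 to 0.61 and a median of -0.10. Ccl20 was 1.91-fold higher on TJ-41 in control mice, without overlap, with an unadjusted p of 0.0772 by edgeR. Ccl2 and Ccl11 were also higher and Ccl9 and Ccl17 lower without overlap. For 2 libraries against 2 without a difference, 33.3% is the expected share.

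In the COPD mice model none of the 10 was called between diets either (background 0.00487%), and DESeq2 called 0. Of the 10, 5 had an unadjusted p under 0.05 by edgeR (background 4.1%), all with lower levels on TJ-41, and each had an adjusted p of 0.991. These were Ccl2 (log2 fold change -1.85 ± 0.53, SE), Ccl20 (-1.38 ± 0.39), Ccl8 (-1.29 ± 0.42), Ccl11 (-1.07 ± 0.29) and Ccl9 (-0.56 ± 0.24). In Ccl2, Ccl20, Ccl8 and Ccl11 both TJ-41 libraries lay below both control diet libraries (background 29%). With all libraries, the median of the 10 was -0.80, against -0.01 over all tested genes, with 7 negative. Ccl6, Ccl3 and Ccl4 had positive values, from 0.14 to 0.20.

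These differences depended on the high replicate 2 on the control diet. Without it, Ccl2 and Ccl11 still had an unadjusted p under 0.05 by edgeR, with log2 fold changes of -1.19 and -0.65, while those of Ccl20, Ccl8 and Ccl9 were -0.76, -0.63 and -0.20, and Ccl17 turned from -1.04 to 0.49. In the same fit, Ccl3, Ccl4, Ccl6 and Ccl7 were at 0.27, 0.42, 0.50 and -0.07. Without replicate 1 instead, Ccl2, Ccl8, Ccl11, Ccl17 and Ccl20 were at -2.29, -1.75, -1.39, -1.76 and -1.81. The remaining control diet library was then the high one. The comparison of the COPD mice model with control mice on the control diet uses the same 2 COPD libraries, so the higher values there and the lower values here are not independent of each other. Heart muscle markers differed between these same groups, with a summed level of 525 and 694 CPM on the control diet and 317 and 258 CPM on TJ-41. All 8 had lower levels on TJ-41 at an unadjusted p under 0.05 (background 4.1%). Their part in the chemokine differences was not tested.

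Whether the response to PPE and LPS differed between the diets was tested directly as the interaction. None of the 10 was called (background 0%) and DESeq2 called 0, while 4 had an unadjusted p under 0.05 by edgeR (background 3.27%), all with a smaller or opposite response on TJ-41. These were Ccl20 (log2 difference -2.31 ± 0.61, SE, p of 0.00422), Ccl2 (-2.25 ± 0.72, p of 0.012), Ccl11 (-1.32 ± 0.42, p of 0.0116) and Ccl8 (-1.37 ± 0.60, p of 0.0486), each with an edgeR adjusted p of 0.999. Without replicate 2 of COPD mice on the control diet, the values were -1.68, -1.59, -0.89 and -0.69. The values for Ccl6 and Ccl3 were 0.58 ± 0.41 and 0.16 ± 0.59 (SE).

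Some of the 10 followed each other over the 8 libraries. Ccl11 and Ccl20 had a Pearson r of 0.96 in log2 CPM and 0.91 without the high library, Ccl8 and Ccl11 0.90 and 0.68, and Ccl3 and Ccl6 0.78 and 0.73. Over all tested genes, the 2 most like Ccl20 were Cry1 (r of 0.97) and Ccdc155 (0.97), and those most like Ccl6 were Zranb3 (0.98) and Fkbp11 (0.98). For Ccl11 they were Gm9399 and Smim24 (0.99 and 0.98), for Ccl8 Gm12155 and Depp1 (0.98 and 0.97), for Ccl9 Gm48795 and Rgs10 (0.99 and 0.99), and for Ccl17 Krtcap2 and Gm5628 (0.99 and 0.99). For Ccl3 they were the immunoglobulin segments Igkv1-135 and Igkv1-131 (0.98 and 0.98), for Ccl2 Pclaf and Mypn (0.97 and 0.96), for Ccl7 Eno2 and Gm17201 (0.97 and 0.96), and for Ccl4 Mir142b and Matk (0.98 and 0.94). These correlations describe the 8 libraries, which share their 4 groups and the high library.

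Among the other C, CC and CX3C ligands, 11 of 13 were tested and none was called in any of the 6 comparisons. In the COPD mice model over both diets 1 of the 11 had an unadjusted p under 0.05, near the 10.4% of all genes, and the median was 0.37. This was Ccl21a, the lymphatic ligand of CCR7, with a log2 fold change of 0.57 ± 0.25 (SE, p of 0.0457 by edgeR). Its highest and lowest levels were both in COPD mice on the control diet, with 63.2 CPM in replicate 2 and 25.9 CPM in replicate 1. Between diets in the COPD mice model, 1 of the 11 had an unadjusted p under 0.05 (background 4.1%), the T cell attractant Ccl5 at -0.92 (named after its value was seen), and the median was -0.49 with 10 of 11 negative.

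Of the 10 CC receptors, all tested, none was called in any comparison. Over both diets 1 had an unadjusted p under 0.05, near the background of 10.4%: Ccr8, a receptor of CCL1 and of mouse CCL8 found on T cells. It measured 0.256 to 0.312 CPM in control mice and 0.626 to 1.04 CPM in the COPD mice model without overlap (background 6.78%), with a log2 fold change of 1.44 ± 0.36 (SE, adjusted p of 0.171 by edgeR). Of the other receptors in this list, over both diets the log2 fold changes were -0.15 for Ccr1, -0.07 for Ccr2, 0.23 for Ccr3, 0.64 for Ccr4 and -0.22 for Ccr6. The atypical receptors, which bind chemokines without G protein signalling, gave 0 calls of 4. Ackr1 was at 1.64 ± 0.61 and Ackr4 at -0.58 ± 0.19 (log2 fold change with SE, unadjusted edgeR p of 0.0245 and 0.012). Ackr1 measured 0.469 and 3.18 CPM in COPD mice on the control diet and 1.25 and 1.07 CPM on TJ-41. In control mice it ranged from 0.162 to 0.942 CPM, and the COPD libraries of both genes overlapped control libraries.

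Markers of the cells these chemokines attract were compared over both diets, where 0.443% of all genes were called and 10.4% had an unadjusted p under 0.05. Neutrophil markers, 9 of 12 tested, had 0 calls and 0 with an unadjusted p under 0.05 by edgeR over both diets, and summed to 185 to 285 CPM in control mice and 99.5 to 386 CPM in the COPD mice model. Monocyte and interstitial macrophage markers had 0 calls and 4 of 12 with higher levels at an unadjusted p under 0.05, with sums of 370 to 553 CPM and 492 to 507 CPM. Eosinophil, mast cell and basophil markers, 6 of 10 tested, had 1 call, a higher Prg2, while the other 5 had negative log2 fold changes. The median of the 6 was -0.42, and 1 was lower at an unadjusted p under 0.05 by edgeR. These markers summed to 40.8 to 62.0 and 21.02 to 53.6 CPM, with the eosinophil peroxidase gene Epx at 0 to 0.10 CPM. Dendritic cell markers had 0 calls of 10, 2 with higher levels at an unadjusted p under 0.05, and sums of 177 to 208 and 181 to 216 CPM. T and B lymphocyte markers had 2 calls of 12, Jchain and Ighm of antibody-producing cells, both higher, and sums of 598 to 905 CPM in control mice and 1591 to 2567 CPM in the COPD mice model without overlap. The part of these cells in the chemokine results was not tested.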

How the data were processed

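RNA-seq of total lung RNA (8 libraries) was used. The authors deposited raw counts of reads for each Ensembl gene, as whole numbers. The submitters' processing notes name mm10, HISAT2 and edgeR, and the study's methods name CLC Genomics Workbench. The counting program, annotation release and strand setting are not given in the sources used here. Of 52636 identifiers, 52489 were found in GENCODE M21 (GRCm38), which gave symbols and positions.

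The counts were fitted in edgeR 4.0.16 (R 4.3.3): filterByExpr (minimum count 10, minimum total 15), TMM factors, and the quasi-likelihood test on the 4 group means with all 8 libraries (4 residual degrees of freedom, common biological coefficient of variation 0.208), tested on simulated data first. A DEG had a Benjamini-Hochberg adjusted p under 0.05 over all 20546 tested genes and changed by more than 1 on the log2 scale. A count of 3, taken as the floor, equals 0.153 to 0.162 CPM. Groups and replicate numbers came from the sample labels, which write the diet as TJ41 and as TJ4. Nothing says that replicates are separate mice, so p-values measure only the spread between libraries. Replicates differed by 11.9 to 88.1 times counting noise, more than repeat sequencing of 1 library would give.

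All 10 members were named. Of other chemokine and receptor genes, those called in any comparison or with an unadjusted p under 0.05 over both diets were named, and for each member the 2 genes with the highest Pearson r of log2(CPM + 0.5). The members and lists were chosen with earlier results of these data known. Values of some receptors are not reported here. Alternatives were other scalings and filters, a replicate block, an additive design, fits of 2 groups only, DESeq2 1.42.0 and leaving out each library.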

Additional observations from a re-analysis of the deposited data

Results flagged for a closer look

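Ccl2 was flagged because the effect of PPE and LPS had opposite directions on the 2 diets. Both COPD libraries on the control diet lay above both of their controls, and both on TJ-41 lay below both of theirs. The effect on the control diet was 0.75 on the log2 scale, and 0.09 without replicate 2 of its COPD group, since replicate 1 had 25 reads against 23 and 24 in the controls. The difference between the effects was -2.25 ± 0.72 (log2, SE), with an unadjusted p of 0.012 and an adjusted p of 0.999 by edgeR's quasi-likelihood test, which does not pass correction over all genes. It was -1.59 without replicate 2 and -2.69 without replicate 1 of COPD mice on the control diet, and the counts behind it are 7 to 55 reads per library.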

How the results depend on the processing

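With 2 libraries per group and low counts for several members, the calls depended on the processing more than the directions did. Of the log2 fold changes of the 10 members under settings that kept all libraries, 389 stayed on their side of the threshold with their direction, 10 newly passed it, 4 no longer did and 1 reversed, and in the fits without 1 library the numbers were 427, 17, 11 and 25. The number of members called over both diets went from 1 to 2 with DESeq2's size factors in edgeR, with all genes that had a count and with DESeq2, the added member being Ccl6, and from 0 to 6 without 1 library. The additive design also called 1, but it was Ccl6 (adjusted p of 0.0351) in place of Ccl20 (0.0969). On the control diet the number went from 1 to 2 with all genes that had a count, to 3 with DESeq2, and to 0 with a mean of at least 1 CPM or with only the 2 groups compared, and from 0 to 5 without 1 library. On TJ-41 it went from 0 to 1, which was Ccl6, with all genes that had a count, with only the 2 groups compared and with DESeq2, and from 0 to 1 without 1 library. Between diets in the COPD mice model it went from 0 to 5 without 1 library, and in control mice and for the interaction it was 0 in each setting run. The highest numbers came without replicate 1 of COPD mice on the control diet. The cause was not tested.

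The correlations of replicate differences between groups ran from -0.234 to 0.108, so the numbers did not pair the libraries. A fit with the replicate block called 1 member over both diets (Ccl20, adjusted p of 0.0377) and 0 on the control diet (Ccl20, 0.0663), and it turned the log2 diet difference of Ccl3 in control mice from -0.01 to 0.0024. It moved no other number of called members.

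Values that changed sign without 1 library ran as follows. Over both diets Ccl4 ran from -0.18 to 0.40 and Ccl17 from -0.11 to 1.01. On the control diet Ccl4 ran from -0.83 to 0.33 and Ccl17 from -0.64 to 1.61, and on TJ-41 Ccl8 ran from -0.22 to 0.69 and Ccl17 from -0.071 to 0.77. Between diets in control mice Ccl3 ran from -0.23 to 0.23, Ccl4 from -1.09 to 0.074, Ccl6 from -0.74 to 0.042, Ccl7 from -0.46 to 0.16 and Ccl8 from -0.094 to 0.22. Between diets in the COPD mice model Ccl3 ran from -0.52 to 0.60, Ccl4 from -0.25 to 0.55, Ccl6 from -0.086 to 0.50 and Ccl17 from -1.76 to 0.49. For the interaction Ccl3 ran from -0.49 to 0.63, Ccl7 from -0.54 to 0.12, Ccl9 from -0.59 to 0.051 and Ccl17 from -1.20 to 1.05. Over all genes, the number called over both diets was 91, against 278 with all genes that had a count and 245 with DESeq2, and 15 to 873 without 1 library. On the control diet it was 25, against 147, 171 and 3 to 1343, with 17 at a mean of at least 1 CPM. On TJ-41 it was 16, against 89, 125 and 2 to 168, with 248 from only the 2 groups compared. In control mice between diets it was 0, against 10 with DESeq2. In the COPD mice model between diets it was 1, against 12 with DESeq2 and 0 to 728 without 1 library. For the interaction it was 0, against 17 with DESeq2 and 0 to 14 without 1 library.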
